A study of Mus musculus with 6 samples.

Results

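The endoplasmic reticulum (ER) genes described here are 36 genes of protein folding, quality control and secretion, chosen by symbol, and each of the 36 was found among the 23412 rows of the count table. They comprise 11 chaperones and cochaperones, 4 disulfide isomerases, 9 genes of ER-associated degradation, 9 genes of translocation into the ER and 3 stress sensors. RNA was sequenced from splenic germinal centre B cells, sorted as B220+, GL7+ and Fas+ on day 10 after mice were injected with sheep red blood cells. DAF-TM mice carried Cg1-cre(+/-) together with 2 copies of a floxed DAF-TM cassette at the Rosa26 locus, written DAF-TM(fl/fl), and control mice carried Cg1-cre(+/-) alone. Both groups therefore carried the Cre allele, which is expressed from an immunoglobulin heavy chain locus in activated B cells, and the cassette encodes decay accelerating factor, a membrane regulator of complement whose mouse gene is Cd55. The labels give no age, and they do not say if cells of several mice were pooled, so p-values measure only the spread between these libraries.

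Proteins that enter the secretory route are threaded into the ER through a channel, folded there by chaperones and disulfide isomerases, and sent back to the cytosol for degradation when folding fails. The sensors Ern1 (IRE1), Atf6 and Eif2ak3 (PERK) start the unfolded protein response when folding capacity is short. IRE1 splices the RNA of Xbp1, and the XBP1 and ATF6 proteins then raise transcription of chaperone and degradation genes. In the B lineage this machinery is known for its large expansion when cells turn into antibody-secreting plasma cells.

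The labels name 3 replicates per group, but DAF-TM replicates 2 and 3 had identical counts throughout. Their difference was less than the sampling noise, so both were counted as 1 sample (DAF-TM library 2 in what follows), although the values may belong to either replicate. This left 2 DAF-TM and 3 control libraries of 7257339 to 12783965 counts. Cd55, the gene of the cassette's protein, stood at 713 and 726 normalised CPM in the DAF-TM libraries, against 28.7, 34.4 and 23.5 in the controls. DAF-TM library 1 held both Xist, which is transcribed in females, at 291 CPM and Y-linked reads at 284 CPM. DAF-TM library 2 and control library 1 held Xist at 797 and 744 CPM and at most 0.104 CPM of Y-linked reads, and control libraries 2 and 3 the reverse. All of 11 germinal centre marker genes had counts in each library, and Bcl6, the transcription factor that defines these cells, stood between 214 and 313 normalised CPM. Immunoglobulin chain genes were not analysed here.

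Promoters of ER chaperone genes are known for a paired motif, the ER stress response element (ERSE), which ATF6 binds together with the factor NF-Y. The promoter sequences, from RefSeq with build GRCm38.p6, run from 250 bases before to 50 bases after a gene's start and were found for 30 of the 36 genes. Hyou1, Manf, Derl1, Sec61a1, Ssr2 and Atf6 had no entry. An exact ERSE, spelled as CCAAT, any 9 bases and CCACG and searched on both strands, stood in 9 of these 30 genes (30.0%), against 0.137% of 27025 genes in the same table. These were 6 of 9 chaperones and cochaperones (Hspa5, Hsp90b1, Calr, Canx, Dnajc3 and Creld2), the isomerase Pdia6 and the degradation genes Derl3 and Syvn1. None of the 7 translocation genes and neither of the 2 sensors with a sequence held one. The shorter ERSE-II, spelled as ATTGG, any 1 base and CCACG, stood in Dnajb11 and Herpud1, and the motif TGACGTGG in none of the 30, against 0.044% and 0.714% of all genes. The ERSE contains the pentamers CCAAT and CCACG, which alone were found in 41.1% and 35.5% of all genes. The stretches below are shown because they carry the element in the 6 genes at least 1.5-fold apart between the DAF-TM libraries after normalisation (3 of them, Hsp90b1, Creld2 and Derl3, also on CPM without factors) and in Canx, whose libraries lay close together. Each runs 5′ to 3′ along the gene's strand, and the capitals mark the 2 pentamers of the element, which read CGTGG and ATTGG where the element lies on the opposite strand.
Hspa5 (chr2:34772005-34772063, plus strand): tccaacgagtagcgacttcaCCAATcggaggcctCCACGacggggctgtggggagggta
Hsp90b1, distal (chr10:86705618-86705676, minus strand): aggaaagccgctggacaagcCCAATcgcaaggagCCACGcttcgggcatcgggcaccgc
Hsp90b1, proximal (chr10:86705513-86705571, minus strand): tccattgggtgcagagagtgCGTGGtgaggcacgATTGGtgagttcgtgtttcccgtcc
Creld2 (chr15:88819500-88819558, plus strand): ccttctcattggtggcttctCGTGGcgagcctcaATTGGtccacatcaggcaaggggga
Derl3 (chr10:75893222-75893280, plus strand): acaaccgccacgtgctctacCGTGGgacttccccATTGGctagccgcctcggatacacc
Dnajc3 (chr14:118937807-118937865, plus strand): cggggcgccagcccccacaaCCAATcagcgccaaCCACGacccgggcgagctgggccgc
Pdia6 (chr12:17266471-17266529, plus strand): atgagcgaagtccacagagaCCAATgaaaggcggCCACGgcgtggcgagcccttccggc
Canx (chr11:50325780-50325838, minus strand): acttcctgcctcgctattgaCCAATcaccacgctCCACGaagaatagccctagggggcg

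No gene of the secretory set passed the test for a difference between DAF-TM and control cells. Of the 36 genes, all of which passed the filter on low counts, 0 were called higher and 0 lower by edgeR's quasi-likelihood test at an adjusted p of 0.05, where 0.373% and 0.0373% of 18767 genes were called (0.41% in either direction). At an unadjusted p under 0.05 the count was also 0, against 3.68% of all genes higher and 2.06% lower. DESeq2 and limma-voom called 0 as well, with 0 and 1 at an unadjusted p under 0.05. The median log2 fold change was -0.02, with a range of -0.28 to 0.55, beside 0.03 over all genes tested. Of the 36, 16 had positive values, against 53.9% of all genes, and the number rested on the scaling, with 23 positive under upper-quartile factors and 25 on CPM without factors. The 95% interval of the fold change lay within 1 log2 unit of 0 for 35 of the 36 and crossed that limit for Pdia4, while 60.5% of all genes stayed within it. These intervals rest mainly on the spread pooled over genes, since the fit had 3 residual degrees of freedom. In simulated counts the same test recovered 26% of 1.5-fold changes, so 0 calls do not exclude changes of that size.

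**Figure D1:**
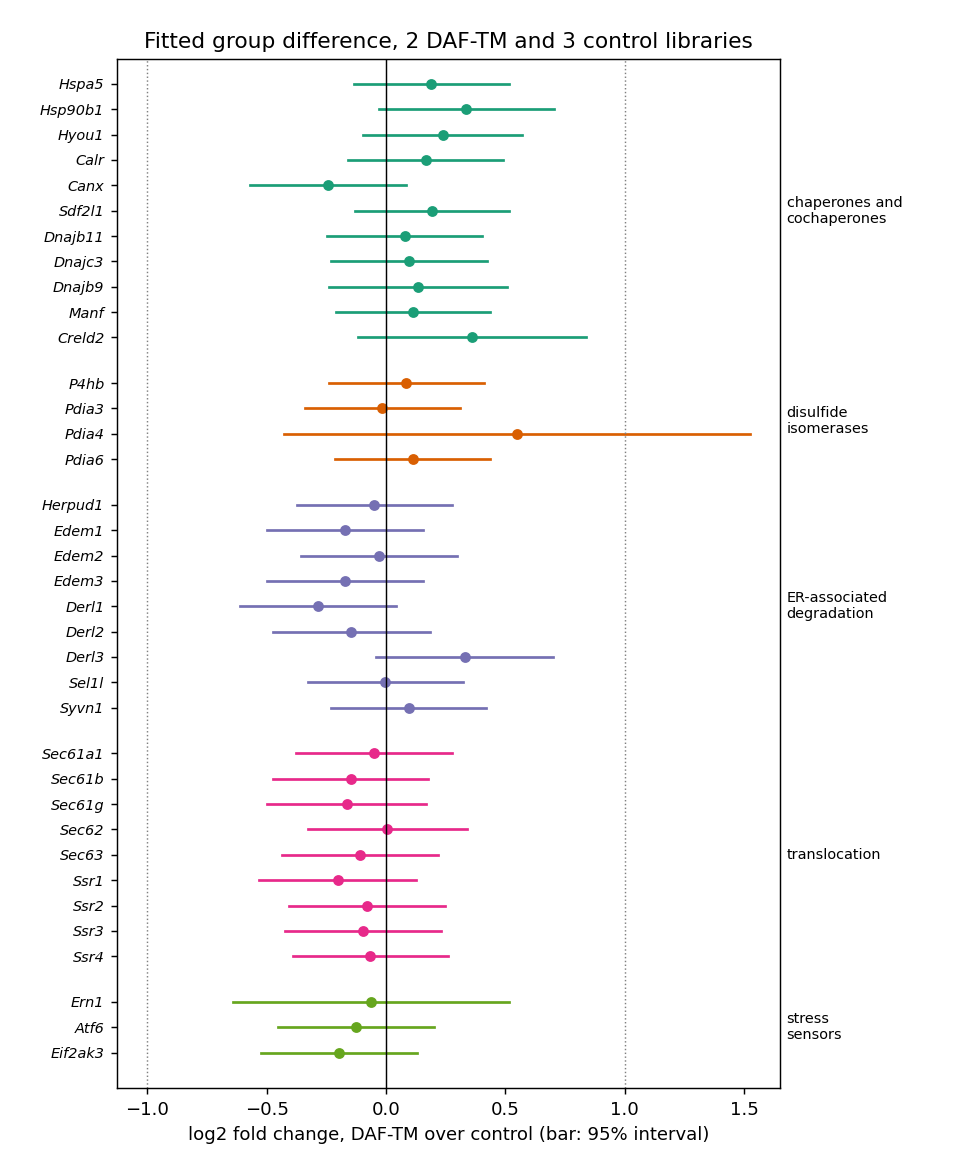
Fitted log2 fold change of each of the 36 genes, DAF-TM over control (points), with its 95% interval (bars), from 2 DAF-TM and 3 control libraries, coloured by role. Every interval crosses 0, and the interval of Pdia4 is the widest, from -0.43 to 1.52.

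The near-zero group difference covered a large difference between the DAF-TM libraries. After normalisation, DAF-TM library 1 was above DAF-TM library 2 in 34 of the 36 genes, with a median log2 difference of 0.47, where 47.9% of all genes tested, 80.6% of those averaging at least 20 CPM and 86.5% of those of at least 100 CPM were. Library 1 was the highest of the 5 libraries in 20 genes, against 17.9% of all genes, 23.8% of the 7443 genes of at least 20 CPM and 19.5% of the 2584 genes of at least 100 CPM. Library 2 was the lowest of the 5 in 29 genes, against 24.3%, 52.6% and 67.5%. Both held for 16 genes, against 5.4%, 11.4% and 12.7%. The count of lowest values rested on the scaling: on CPM without normalisation factors library 2 was lowest in 10 genes, where 15.4% of genes of at least 20 CPM were, whereas library 1 was highest in 22, where 21.9% were. On that scale library 1 was above library 2 in 30 genes (51.4% of genes of at least 20 CPM), with a median log2 difference of 0.30 beside 0.01. With the factors the median over genes of at least 20 CPM was 0.18, so abundant genes in general shared part of the difference. A difference of at least 1.5-fold between the libraries was reached by 13 of the 36 genes, against 3.18% of all genes, 2.81% of the genes of at least 20 CPM and 2.32% of those of at least 100 CPM. Without factors this count was 4 (Pdia4, Creld2, Hsp90b1 and Derl3), against 0.846% of the genes of at least 20 CPM. With 1 library on each side this difference has no replicate check.

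**Figure D2:**
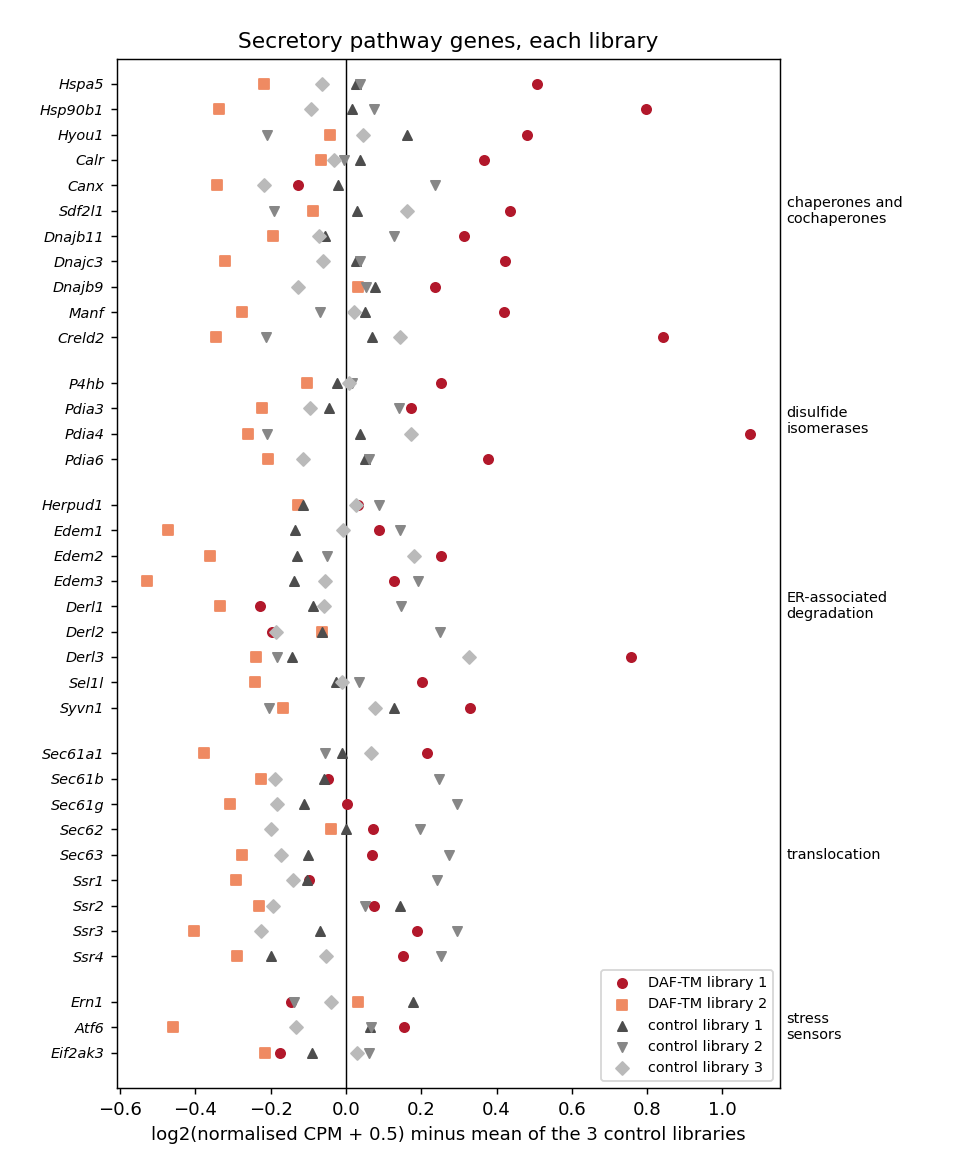
Value of each gene in each of the 5 libraries as log2(normalised CPM + 0.5) minus the mean of the 3 control libraries. DAF-TM library 1 (red circles) is the highest in 20 genes, most of them chaperones and isomerases, and DAF-TM library 2 (orange squares) is the lowest in 29.

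Among the 11 chaperones and cochaperones, library 1 was above library 2 for 11 and the highest of the 5 libraries for 10. Hspa5 (BiP), the ATP-driven chaperone of the ER that also restrains the stress sensors, stood at 1111 and 672 normalised CPM in DAF-TM libraries 1 and 2, against 796, 801 and 748 in control libraries 1 to 3. After normalisation, DAF-TM library 1 thus lay above the 3 controls and library 2 below them. Library 2 was not below the controls without factors: it had 7949 of 10684753 counts, and control library 2 had 9432 of 12783965. The fitted log2 fold change was 0.19 (SE 0.16, edgeR adjusted p = 0.949). Hsp90b1 (GRP94), the ER member of the HSP90 family, had 1325 and 604 CPM in the DAF-TM libraries, against 772, 804 and 716 in the controls. The controls lay within 100 CPM of each other, and the DAF-TM libraries averaged 964 ± 510 CPM against 764 ± 44.7 in the controls (SD, n = 2 and 3). Its log2 fold change of 0.34 was the one of lowest p among the 36 (SE 0.18, adjusted p = 0.909).

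Creld2, a secreted ER stress protein with isomerase activity, stood at 236 and 103 CPM in the DAF-TM libraries and at 138, 113 and 145 in the controls. Library 1 was again the highest and library 2 the lowest (log2 fold change 0.36, SE 0.23, adjusted p = 0.945). Sdf2l1, a partner of BiP in protein quality control, had 125 and 87.0 CPM in the DAF-TM libraries, against 94.4, 80.9 and 104 in the controls, so library 2 lay inside the control range (0.19, SE 0.16, adjusted p = 0.949). Dnajb9 (ERdj4), a BiP cochaperone and a classic IRE1 to XBP1 target, varied little, at 29.3 and 25.4 CPM in the DAF-TM libraries and 26.2, 25.7 and 22.6 in the controls (0.14, SE 0.19, adjusted p = 0.958). The remaining cochaperones followed the larger genes: Dnajc3 (p58IPK) was 1.68-fold higher in library 1 than in library 2, Manf, a BiP-binding secreted factor, 1.62-fold and Dnajb11 (ERdj3) 1.42-fold. Hyou1, the nucleotide exchange factor of BiP, was 1.44-fold higher there and Calr, the soluble lectin chaperone calreticulin, 1.35-fold. Canx, the membrane-bound lectin chaperone calnexin, differed from the rest of the group: it was 1.16-fold higher in library 1 than in library 2 but below the control mean in both, and it was the 1 gene of 11 with a negative group value (-0.24, SE 0.17).

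Among the disulfide isomerases, Pdia4 (ERp72) had the widest split of the 36 genes. It stood at 509 and 202 normalised CPM in the DAF-TM libraries, against 248, 209 and 272 in the controls, 2.52-fold higher in library 1 than in library 2. Its group fold change, a log2 value of 0.55, had a standard error of 0.39 (adjusted p = 0.947). Pdia3 (ERp57), which works with the lectin chaperones on glycoproteins, had 755 and 574 CPM in the DAF-TM libraries and 649, 739 and 626 in the controls (log2 fold change -0.02, SE 0.17, adjusted p = 0.995). The groups overlapped here as for Pdia4, and after normalisation the DAF-TM libraries were again the highest and the lowest of the 5. Library 2 was the lowest for neither gene without factors. For Pdia3 it had 6786 of 10684753 counts, against 4592 of 7257339 in control library 3. For Pdia4 it had 2385 counts, against 2459 of 12783965 in control library 2. Pdia6 and P4hb (PDI), general oxidoreductases, had log2 fold changes of 0.11 and 0.09.

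Genes of ER-associated degradation were less uniform. Derl3, a channel component known to be induced by stress and abundant in secretory cells, had 75.8 and 37.7 CPM in the DAF-TM libraries, against 40.4, 39.2 and 56.1 in the controls (log2 fold change 0.33, SE 0.19, adjusted p = 0.919). Control library 3 also stood apart from the other controls for this gene. Its relatives differed: Derl1 was below every control in both DAF-TM libraries, at 195 and 181 CPM against 215, 252 and 219 (-0.28, SE 0.17, adjusted p = 0.926), and Derl2 was higher in library 2 than in library 1. After normalisation, Derl1 and Eif2ak3 were the 2 of 36 genes whose DAF-TM libraries lay below all controls, where 9.02% of all genes did. None (0) lay above all controls, where 11.3% did. Derl1 stayed below the controls without factors, and Eif2ak3 did not. Eif2ak3 had 2460 of 10684753 counts in DAF-TM library 2, against 2142 of 9627306 in control library 1.

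Edem1, the most abundant of this group in CPM, accelerates removal of misfolded glycoproteins; it had 601 and 407 CPM in the DAF-TM libraries and 514, 624 and 562 in the controls (-0.17, SE 0.17, adjusted p = 0.949). Library 2 lay below the controls and library 1 among them, and the related mannosidase genes Edem2 and Edem3 were likewise lowest in library 2, with log2 fold changes of -0.03 and -0.17. Herpud1, a scaffold of the degradation complex, stood at 426 and 381 CPM in the DAF-TM libraries, against 384, 442 and 424 in the controls (-0.05, SE 0.17, adjusted p = 0.985). Sel1l and Syvn1 (HRD1), the adaptor and the ubiquitin ligase of that complex, had log2 fold changes of -0.0021 and 0.10.

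All 9 translocation genes were higher in library 1 than in library 2 after normalisation, by log2 differences of 0.11 to 0.59. Ssr1, a subunit of the TRAP complex beside the channel, stood at 296 and 259 CPM in the DAF-TM libraries, against 295, 375 and 287 in the controls (log2 fold change -0.20, SE 0.17, adjusted p = 0.947). After normalisation, control library 2 was the highest here and in 7 of the 9 genes, and DAF-TM library 2 the lowest in 8. Among genes of at least 20 CPM, control library 2 was the highest in 3617 of 7443 and DAF-TM library 2 the lowest in 52.6%. The lowest values rested on the scaling: without factors DAF-TM library 2 was the lowest only for Sec61a1, Ssr1 and Ssr3. The other subunits of TRAP, Ssr2, Ssr3 and Ssr4, the channel subunits Sec61a1, Sec61b and Sec61g and the channel partner Sec63 had log2 fold changes from -0.16 to -0.05, of which those of Sec61a1, Ssr2, Ssr3 and Ssr4 were above 0 on CPM without factors, and Sec62, another partner, stood at 0.01. The median difference between DAF-TM libraries 1 and 2 was 0.31 in this group, against 0.52 for chaperones, 0.49 for isomerases, 0.50 for degradation genes and 0.04 for the 3 sensors.

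**Figure D3:**
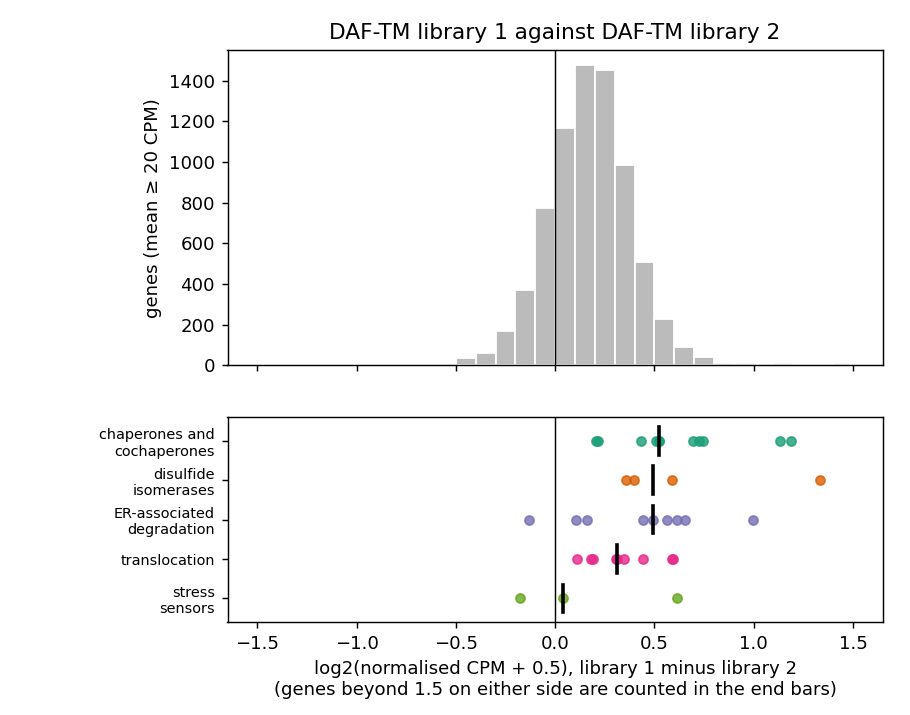
Upper panel, number of genes with a mean of at least 20 CPM by the log2 difference between DAF-TM library 1 and DAF-TM library 2. Lower panel, the same difference for each of the 36 genes by role (points) with the group median (bars): 34 of 36 lie above 0, and the medians run from 0.04 for the sensors to 0.52 for the chaperones.

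None of the 3 stress sensors passed the test, and their group values lay just below 0. The sign was not stable for Ern1, which was above 0 without factors (0.048), with upper-quartile factors (0.016), without DAF-TM library 1 (0.022) and without control library 1 (0.039), nor for Atf6, which was above 0 without DAF-TM library 2 (0.15). Eif2ak3, the kinase PERK that slows translation under ER stress, had 214 and 208 CPM in the DAF-TM libraries, against 227, 252 and 247 in the controls (log2 fold change -0.20, SE 0.17, adjusted p = 0.949). After normalisation its DAF-TM libraries lay close together and below the controls. On CPM without factors library 1 stood at 0.91 of library 2, and library 2 lay among the controls. Atf6, a membrane-bound precursor of a transcription factor, stood at 104 and 68.0 CPM in the DAF-TM libraries and at 98.0, 98.1 and 85.4 in the controls (-0.12, SE 0.17, adjusted p = 0.956). Ern1, the nuclease and kinase IRE1, was the least abundant of the 36 genes, at 7.94 and 9.05 CPM in the DAF-TM libraries and 10.1, 7.98 and 8.59 in the controls (-0.06, SE 0.29, adjusted p = 0.985). The depth behind it was 63 to 107 counts per library, so its interval, -0.64 to 0.52, was wider than those of Atf6 and Eif2ak3.

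Per kilobase of exon (GENCODE M21, GRCm38), the most abundant of the 36 were Hsp90b1, Pdia3 and Hspa5 in DAF-TM cells, with mean levels of 239, 212 and 211 CPM per kilobase. In control cells the same 3 led, at 189, 214 and 185, with Pdia3 first, and Hsp90b1 and Hspa5 differed by less than the spread of the controls. Herpud1 followed in both groups, at 173 in DAF-TM and 179 in control cells, and Calr, at 172 and 153. Ern1 was last in both, at 1.04 and 1.09, after Hyou1, at 8.70 and 7.39. The lengths join all annotated exons of a gene and not those of the RNA forms expressed here, so the order of genes depends on the annotation. The DAF-TM libraries differed more from each other for Hsp90b1 and Hspa5 than these genes differed from Pdia3, so their order within that group is not resolved.

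The outcome depended on which DAF-TM library was kept. With library 1 as the one DAF-TM library, 28 of the 36 genes had positive log2 fold changes, with a median of 0.19, and 3 were called higher, where 0.616% of 19169 genes were called in either direction: Pdia4 (1.07, edgeR adjusted p = 0.000118), Creld2 (0.84, adjusted p = 0.00894) and Hsp90b1 (0.79, adjusted p = 0.00894). With library 2 as the one DAF-TM library, 2 of the 36 were positive, the median was -0.26, 0 were called (4 at an unadjusted p under 0.05), where 0.0717% of 19517 genes were, and the same 3 genes stood at -0.28, -0.36 and -0.35. In these fits the single DAF-TM library is assumed to vary like the controls. Without any 1 control library, 0 of the 36 were called, and the median ran from -0.01 to 0.05.

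Genes with an exact ERSE had a larger split between the DAF-TM libraries than those without it, as a description of these 2 libraries. The median log2 difference was 0.72 over the 9 genes with the element (0.21 for Canx to 1.19 for Creld2). It was 0.36 over the 21 with a promoter sequence but no exact ERSE (-0.18 to 1.33). With the ERSE-II genes Dnajb11 and Herpud1 counted among those with an element, the medians were 0.59 over 11 genes and 0.36 over 19. Of the 9, 6 reached 1.5-fold, and of the 21, 4 did, counts that were 3 and 1 on CPM without factors, where the medians were 0.55 and 0.19. Pdia4, the gene of the widest split, held no exact element in its window, and the element is most frequent among the chaperones, so element and role cannot be told apart here. The group fold changes had medians of 0.17 with the element and -0.06 without it.

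Plasma cell markers moved with the secretory genes between the DAF-TM libraries. After normalisation, 12 of 12 such markers were higher in library 1 than in library 2, where 47.9% of all genes and 80.6% of those of at least 20 CPM were. Their median log2 difference was 0.53, beside 0.18 for genes of at least 20 CPM. Without factors the order turned for Slamf7, with 3324 of 11280400 counts in library 1 and 3366 of 10684753 in library 2. Xbp1 and Fkbp11 are also among the further pathway genes described below. The list summed to 5159 and 3943 normalised CPM in the DAF-TM libraries, against 4081 to 6264 in the controls. Library 1 was the highest of the 5 libraries for 8 of the 12, against 23.8% of genes of at least 20 CPM. In the group comparison 7 had positive log2 fold changes, against 53.9% of all genes. The 5 negative ones, Jchain, Mzb1, Ell2, Slamf7 and Tnfrsf13b, ran from -0.20 to -0.08. Sdc1, the surface proteoglycan CD138 of plasma cells, stood at 24.7 and 8.37 CPM in the DAF-TM libraries, against 10.7, 11.9 and 17.6 in the controls, and control library 3, which was high for Derl3, was the highest control. Prdm1 (BLIMP1), the regulator of plasma cell fate, had 38.0 and 22.6 CPM in DAF-TM cells, against 14.8, 18.5 and 18.4 in the controls. It was the 1 marker of 12 called in the group comparison (log2 fold change 0.81, edgeR adjusted p = 0.0147), and 0 of the 12 were called with upper-quartile factors or without DAF-TM library 1. Irf4, a transcription factor of the same programme, had 71.8 and 33.5 CPM against 37.6, 38.8 and 37.0 in the controls. Jchain, the joining chain of secreted antibody, listed as Igj, had 3236 and 2426 CPM in the DAF-TM libraries and 2433, 4317 and 3006 in the controls. After normalisation DAF-TM library 2 was thus the lowest, close to control library 1, but control library 2, not DAF-TM library 1, the highest. DAF-TM library 2 was not the lowest without factors, with 28687 of 10684753 counts against 22967 of 9627306 in control library 1. None of the 12 was at 0 in any library. The part of these markers in the split of the secretory genes was not tested, and in bulk samples more cells of a type and more RNA per cell cannot be told apart.

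**Figure D4:**
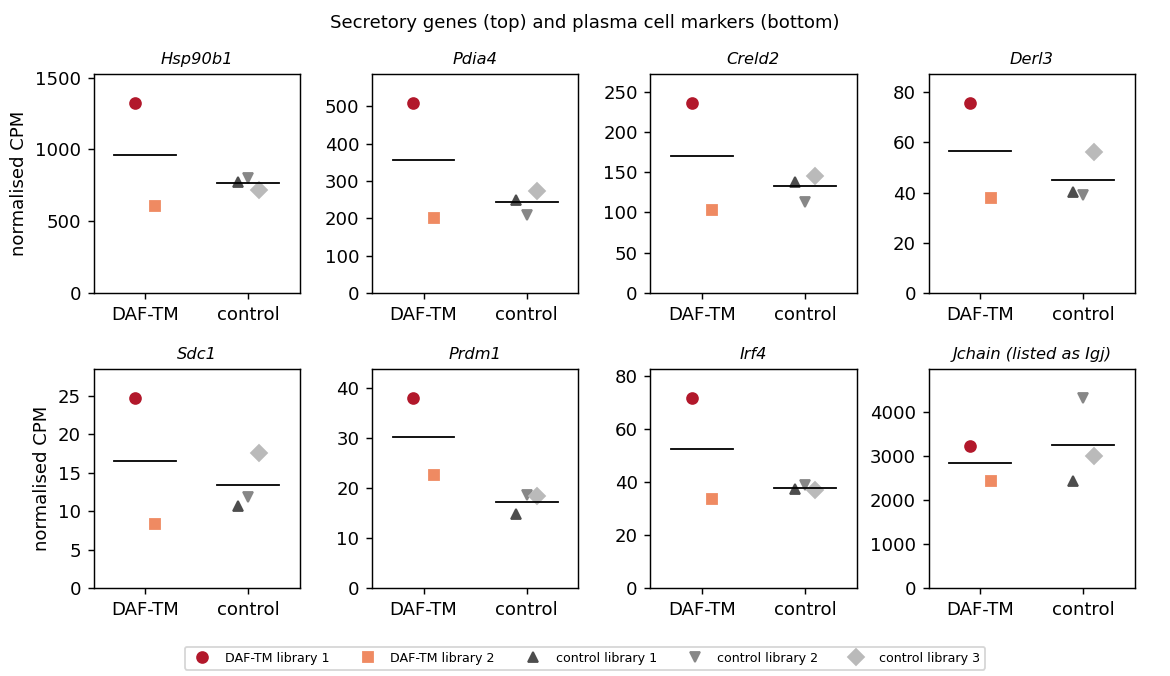
Normalised CPM by library for 4 secretory genes (upper row) and 4 plasma cell markers (lower row), with lines at the group means. DAF-TM library 1 is the highest of the 5 libraries for each gene but Jchain, and DAF-TM library 2 lies with or below the controls for all but Prdm1.

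Markers of other cells also differed between the groups and between the libraries. Of 12 natural killer cell genes, 8 were called higher in DAF-TM cells by edgeR (0.373% of all genes). Of the 12, 9 lay above every control (11.3% of all genes), and the median log2 fold change was 1.53. Between the DAF-TM libraries 11 of these 12 were higher in library 1 (47.9% of all genes), with a median log2 difference of 0.78. The list summed to 185 and 98.0 CPM in the DAF-TM libraries, against 54.9 to 92.6 in the controls. Of 13 macrophage genes, 4 were called higher (Csf1r, C1qb, Vcam1 and Slc40a1), 8 lay above every control, and the median was 0.66. Their sum, 901 and 696 CPM in the DAF-TM libraries against 726 to 791 in the controls, was mostly Apoe, which stood at 608 to 778 CPM. Of 12 T cell genes, 2 were called higher (Cd3d and Tcf7), 9 lay above every control, and the median was 0.90. The T cell sums of 287 and 294 CPM, against 288 to 319 in the controls, were mostly Lck, at 213 to 285 CPM, which was the 1 gene of the list with a negative value. Of 10 dendritic cell genes, 1 was called higher (Siglech) and 9 were positive, with sums of 121 and 105 CPM in the DAF-TM libraries, against 93.1 to 97.5 in the controls. Of 9 neutrophil genes, 1 was called lower (Chil3), and the sums were 24.0 and 63.8 CPM, against 88.1 to 295. Of the 11 germinal centre genes, 0 were called, but 11 had negative log2 fold changes (9 with upper-quartile factors and 8 on CPM without factors), with a median of -0.23. Of the 11, 7 lay below every control, where 9.02% of all genes did, and 3 had an unadjusted edgeR p under 0.05. These counts rested on the scaling: 3 and 2 with upper-quartile factors, and 2 and 0 on CPM without factors. The 11 genes summed to 4049 and 4140 CPM in the DAF-TM libraries, against 4359 to 5196 in the controls. Under other scalings the calls numbered 4 to 7 for natural killer cell, 2 to 4 for macrophage and 0 to 2 for T cell genes, and without DAF-TM library 1 they were 0 in each list. None of these lists but the erythroid one, of which 0 of 6 tested genes were called, held a gene at 0 counts in a library, and the part of the markers in the secretory gene values was not tested.

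The wider secretory pathway gave the same count. Of 119 further genes in 6 lists, 0 were called higher and 0 lower, 2 and 4 had an unadjusted p under 0.05 with a positive and a negative sign, and the median log2 fold change was -0.03. Among 20 other stress regulators, Xbp1 stood at 470 and 320 CPM in the DAF-TM libraries, against 348, 397 and 363 in the controls (log2 fold change 0.10, SE 0.17, adjusted p = 0.968). Its split followed that of the chaperones, while Atf4, the transcription factor translated when PERK is active, did not split, at 168 and 162 CPM against 165, 188 and 156 (-0.04, SE 0.17, adjusted p = 0.985). The counts cover both the spliced and the unspliced Xbp1 RNA. Ddit3 (CHOP), a factor of prolonged stress, had 13.7 and 9.98 CPM in the DAF-TM libraries, against 8.16, 8.15 and 9.69 in the controls (0.45, SE 0.27, adjusted p = 0.934), and Ern2, a relative of Ern1, a log2 value of 0.68 (adjusted p = 0.870).

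Of 27 other folding genes, Dnajc10, an ER reductase, had the lowest p of the 119 (log2 fold change -0.46, SE 0.17, adjusted p = 0.519). It stood at 243 and 230 CPM in DAF-TM cells, against 255, 431 and 286 in the controls, so the DAF-TM libraries lay below all controls. The oxidase gene Ero1b, listed as Ero1lb, had a log2 value of -0.38 (adjusted p = 0.775). Os9, a lectin of degradation, had 0.38 (adjusted p = 0.770), Stt3b, a catalytic subunit of the glycosylating enzyme, -0.34 (adjusted p = 0.855), and Tram1, a protein beside the channel, -0.29 (adjusted p = 0.919). Kdelr1, a receptor that returns escaped chaperones to the ER, stood at 16.9 and 22.8 CPM in the DAF-TM libraries, against 24.7, 29.5 and 27.7 in the controls (-0.46, SE 0.20, adjusted p = 0.767). Between the DAF-TM libraries after normalisation, the 119 genes had a median log2 difference of 0.25. It was -0.02 over all genes tested and 0.18 over those of at least 20 CPM. Of the 119, 8 were at least 1.5-fold higher in library 1, where 3.18% of all genes and 2.81% of those of at least 20 CPM were. The median difference was 0.35 for the 25 genes of ER exit and retrieval, 0.31 for the 12 of the glycosylating enzyme and 0.13 for 18 other degradation genes. Values of these lists without factors are not given here.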

How the data were processed

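RNA of sorted germinal centre B cells was reverse transcribed from 10 ng with an oligo-dT primer and read single-end, per the labels' protocols. The submitters' processing notes name bcl2fastq, HISAT2 and featureCounts, and the file header names mm10. Annotation, strand setting and the handling of reads shared by paralogs: not given in the sources used here. The deposited values are raw counts in 23412 rows, each named by a gene symbol. In 27 of these rows a date stands where the gene name should be. Such rows make up no more than 0.266% of the total in any library. Library sizes include them, and the shares given for all genes may include them too.

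Genes were tested with edgeR 4.0.16 in R 4.3.3 (TMM factors, filterByExpr, robust glmQLFit, two-sided glmQLFTest), and p-values were Benjamini-Hochberg adjusted across the 18767 genes tested. Normalised CPM are counts scaled to the TMM library size. Log2 values of single libraries used a pseudocount of 0.5. Standard errors were derived from the fold change and the F statistic. The procedure was tested on simulated data of 2 against 3 libraries, with 50 genes changed at each size. It recovered 26% of 1.5-fold, 82% of 2-fold and 100% of 4-fold and 8-fold changes, with 8 false calls among 162. The alternatives were 12 planned ones, with DESeq2 1.42.0 and limma 3.58.1 (voom) among them, and CPM without factors, which was added after the data were seen.

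The 36 genes and the other lists were chosen with earlier results of these data known. All 36 were named. Values in every library were given for the gene of lowest p and of highest mean in each role and for 8 fixed genes, and for Creld2 and Derl1, which were chosen after their values were seen. The further pathway genes named are those of lowest p per list, those with an unadjusted p under 0.05, Xbp1, Atf4 and Ddit3. Of 120 further pathway genes with a row, 119 were tested. Older symbols were matched through a RefSeq table. Replicate numbers were not treated as pairs.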

Additional observations from a re-analysis of the deposited data

How the results depend on the processing

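The absence of calls among the 36 genes held with RLE and upper-quartile factors, without a low-count filter, with at least 1 CPM in 3 libraries, with DESeq2, with limma-voom and with CPM without factors, and the 119 further pathway genes gave 0 calls in each of these and in each fit that left out 1 library. The exception was the fit without DAF-TM library 2, so that leaving out 1 library gave 0 to 3 secretory genes called higher. In those fits the median log2 fold change ran from -0.26 to 0.19, the genes lying above all controls numbered 0 to 20 and those below 2 to 29. Over all genes, the 77 calls became 39 with upper-quartile factors, 32 with DESeq2, 51 with limma-voom and 42 without factors, and ran from 14 to 118 with 1 library left out (14 without DAF-TM library 1, 43 without control library 1 and 44 without control library 3). The replicate number as a block gave 61 calls, 43 of them among the 77, and 0 among the 36 genes. Same-numbered libraries had deviations from the group means that correlated at -0.12 and -0.25 over genes, and nothing in the labels ties same-numbered mice to each other.

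Without factors the median log2 fold change of all genes was 0.14 in place of 0.03, that of the 36 was 0.072, and 3 genes lay above and 1 below all controls. With upper-quartile factors 3 lay above. The shares of all genes under these settings are not given here, so these counts have no comparison. Signs near 0 turned under these settings: without factors for Pdia3 (0.084), Herpud1 (0.056), Edem2 (0.061), Sel1l (0.093), Sec61a1 (0.037), Ssr2 (0.023), Ssr3 (0.0018), Ssr4 (0.035), Ern1 (0.048) and Atf4 (0.065), with upper-quartile factors for Pdia3 (0.050), Herpud1 (0.023), Edem2 (0.028), Sel1l (0.060), Sec61a1 (0.0041), Ssr4 (6.0e-05), Ern1 (0.016) and Atf4 (0.032), with the stricter filter for Sel1l (0.00033), with RLE factors and with DESeq2 for Sec62 (-0.022 in both), and with the replicate block for Edem2 (0.037) and Sec62 (-0.084). Among the 36 genes with Xbp1 and Atf4 added, the log2 fold change with 1 library left out ran across 0 for 30: Hspa5 -0.22 to 0.51, Hsp90b1 -0.35 to 0.79, Hyou1 -0.058 to 0.48, Calr -0.073 to 0.37, Sdf2l1 -0.10 to 0.43, Dnajb11 -0.20 to 0.31, Dnajc3 -0.33 to 0.42, Manf -0.28 to 0.42, Creld2 -0.36 to 0.84, P4hb -0.11 to 0.25, Pdia3 -0.23 to 0.17, Pdia4 -0.28 to 1.07, Pdia6 -0.22 to 0.38, Herpud1 -0.14 to 0.030, Edem1 -0.49 to 0.083, Edem2 -0.38 to 0.25, Edem3 -0.55 to 0.12, Derl3 -0.26 to 0.75, Sel1l -0.25 to 0.20, Syvn1 -0.18 to 0.32, Sec61a1 -0.39 to 0.22, Sec62 -0.069 to 0.11, Sec63 -0.30 to 0.054, Ssr2 -0.25 to 0.067, Ssr3 -0.43 to 0.17, Ssr4 -0.31 to 0.14, Ern1 -0.16 to 0.039, Atf6 -0.47 to 0.15, Xbp1 -0.21 to 0.35 and Atf4 -0.082 to 0.034. Intervals cover the pooled spread of 5 libraries, and the split between the DAF-TM libraries cannot be tested with 1 library on each side.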

Other observations

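Control library 2 was the highest of the 5 libraries in 14 of the 36 genes, 7 of them among the 9 translocation genes and 5 among the 9 degradation genes, and in 1 of the 11 chaperones. The same library was the highest in 1489 of the 2584 genes with a mean of at least 100 CPM, of which the 36 hold 24 members, and in 4899 of all 18767 genes tested. B cell markers summed to 9913 and 8726 CPM in the DAF-TM libraries, against 9922, 11442 and 9417 in control libraries 1 to 3.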
